A study of Mus musculus with 16 samples.

Results

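Hypoxia response and glycolysis genes were followed across 16 bulk RNA-seq libraries of sorted mouse leukaemia cells. The list held 38 genes, chosen by symbol: the oxygen sensors and regulators of hypoxia-inducible factor (HIF), their targets, the glucose and lactate transporters and the enzymes of glycolysis. All 38 were matched to an identifier, out of 55414 identifiers in the count table. The cells were leukaemia-propagating cells (LPC), the sorted fraction that is taken to carry a leukaemia forward. The mice model a pro-B acute lymphoblastic leukaemia of infants, and every group, bone marrow included, carried the Kmt2a-AFF1 fusion and overexpressed the microRNA miR-128a. Cells were taken from bone marrow (BM) or from the central nervous system (CNS). From each niche 2 LPC types were sorted: LSK cells (Lin-, Sca1+, cKit+ and IL7R+) and LK cells (Lin-, Sca1- and cKit+; the labels also write LK/CLP). There were 4 libraries for each of BM LSK, BM LK, CNS LSK and CNS LK, and no group of healthy cells was analysed here. The labels name no promoter for the transgenes and no age, and do not say which libraries came from separate animals, so p-values measure the spread between these libraries, which may in part be technical.

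HIF is a transcription factor made of an oxygen-labile alpha subunit, such as HIF-1α, and the stable partner ARNT. When oxygen is plentiful, prolyl hydroxylases mark the alpha subunit and the VHL ligase sends it for degradation. When oxygen is scarce it persists, binds short DNA elements with the core RCGTG, and raises transcription of glucose transporters, glycolytic enzymes, lactate export and genes of mitophagy and angiogenesis. Because HIF-1α is set mostly by protein stability, its mRNA need not follow the activity of the pathway, while the mRNAs of its targets are the usual readout. Glycolysis genes are also driven by MYC, AKT and other growth signals in dividing leukaemia cells.

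Several features of the libraries bear on all values that follow. Libraries held from 19.2 to 29.2 M (mega) counts, and olfactory and vomeronasal receptor genes, silent in most tissues, took from 302.4 to 1063 CPM (counts-per-million) of the counts of named genes. Of the 2 libraries with the same description stem, the CNS library had the higher background in 7 of 8 stems. A stem is the part of a library's description shared by 1 BM and 1 CNS library of the same LPC type, and stems are called LSK 1 to LSK 4 and LK 1 to LK 4 here. Against the pro-B label, the B-lineage genes Ebf1 (1 to 43 counts) and Pax5 (1 to 34 counts) lay near the background predicted from gene length, which made up 93.5% and 98.1% of their counts. Of 14 B-lineage markers, 3 had a mean of at least 50 counts (Rag1, Dntt and Il7r). Of 16 T-lineage markers 12 did, with Tcf7 at 472 to 670 CPM and Bcl11b at 256 to 328. The T-lineage markers that did not were Cd3d (6 to 33 counts), Cd3e (0 to 15), Cd3g (4 to 31) and Trac (1 to 11). Predicted background made up 17.4%, 93.8%, 36.7% and 31.4% of their counts. Summed B-lineage markers ran from 387 to 462 CPM in BM LSK, 347 to 653 in CNS LSK, 341 to 479 in BM LK and 448 to 520 in CNS LK; summed T-lineage markers ran from 1642 to 1971, 1495 to 2008, 1762 to 1956 and 1711 to 1985. Markers of myeloid cells summed to at most 10.2 CPM in any library, microglial markers to at most 15.3 and erythroid markers to at most 4.73. Neural and glial markers summed to 51.3 to 72.1 CPM, of which the myelin gene Mbp made up 28.5 to 52.0, while Gfap lay near background at 1 to 21 counts. Endothelial markers summed to 62.2 to 105.4 CPM, of which Pecam1 made up 57.2 to 101.9. Of 8 stem and progenitor markers, 2 had a mean of at least 50 counts (Kit and Flt3). Kit ran from 116 to 168 CPM, while Ly6a, the gene of Sca1, had 11 to 50 counts over the 16 libraries. Sca1 mRNA was thus low in the LSK libraries too, although these cells were sorted as Sca1+. Predicted background made up 7.5% of the Ly6a counts, and at least 74% of those of Cd34, Meis1, Hoxa9, Mecom and Hlf. The part of these markers in the differences below was not tested.

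The HIF element core was common in the promoters of the list. In RefSeq's table for GRCm38.p6, 34 of the 38 genes had at least 1 start site (Bhlhe40, Bnip3l, Ndrg1 and Slc2a3 were not in it). The 250 bases before each start were searched on both strands for the HIF element core, ACGTG or GCGTG. The same letters read as CACGT or CACGC on the other strand. CACGTG holds the core on both strands, was counted once, and is also the E-box letters bound by other factors. Other matches that share a letter, as in GCGTGCGTG of Higd1a, were counted separately. Of the 49 start sites, 38 (77.6%) held the core, against 12679 of 32851 start sites of all genes (38.6%) and 52.7% of the start sites of genes tested here. At least 2 copies were found in 44.9% of the listed starts, in 13.7% of all starts and in 22.1% of starts of tested genes. A match describes letters only, and not a bound site. The list was chosen to hold HIF targets, so the higher share is no test of them, and base content was not matched. For 42 of the 49 start sites, bases 11 to 40 after the start lay in a GENCODE transcript of the gene. Windows of 100 bases are shown, in lower case with the core in capitals, for 6 members with a niche difference above 0 and 2 below it, chosen with their values known. Each window was placed where it holds the most copies of the core within the 250 bases, nearest the start among ties. That of Egln3 lies 229 to 130 bases before the start, and the others begin at most 122 bases before it. Pfkfb3 (chr2:11553930-11554029 and, for another start, chr2:11502113-11502212, minus strand) and Hk2 (chr6:82774455-82774554, minus strand) are the 2 genes with the smallest adjusted p between niches in the fit that pairs the libraries of a stem. The core occurs 1 time in the first Pfkfb3 window and in that of Hk2, and 2 times in the other Pfkfb3 window.
Pfkfb3: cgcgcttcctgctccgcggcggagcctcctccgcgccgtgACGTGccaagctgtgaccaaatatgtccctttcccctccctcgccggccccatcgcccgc
Pfkfb3, other start: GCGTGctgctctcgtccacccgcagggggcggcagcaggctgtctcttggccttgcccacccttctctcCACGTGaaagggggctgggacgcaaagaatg
Hk2: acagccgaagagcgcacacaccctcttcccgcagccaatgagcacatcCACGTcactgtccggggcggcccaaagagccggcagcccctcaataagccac
Slc2a1 (chr4:119108645-119108744, plus strand) and Slc16a3 (chr11:120948967-120949066, plus strand) are the glucose importer and the lactate exporter of the list, each with 2 copies of the core in the window.
Slc2a1: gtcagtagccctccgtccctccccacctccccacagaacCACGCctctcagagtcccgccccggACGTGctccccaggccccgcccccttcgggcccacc
Slc16a3: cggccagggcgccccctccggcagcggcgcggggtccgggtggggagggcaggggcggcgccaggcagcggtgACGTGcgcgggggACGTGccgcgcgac
Bnip3 (chr7:138909524-138909623, minus strand), a mitophagy receptor, has 4 copies in its window, and Egln3 (chr12:54204004-54204103, minus strand), an oxygen sensor that is itself a HIF target, has 1 copy.
Bnip3: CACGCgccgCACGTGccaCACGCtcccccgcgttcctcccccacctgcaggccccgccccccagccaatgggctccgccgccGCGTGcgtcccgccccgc
Egln3: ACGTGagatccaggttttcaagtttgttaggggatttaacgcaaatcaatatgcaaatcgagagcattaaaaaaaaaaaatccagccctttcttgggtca
Higd1a (chr9:121857797-121857896, minus strand) and Pfkp (chr13:6648772-6648871, minus strand) had niche differences below 0, and each has 2 copies in its window.
Higd1a: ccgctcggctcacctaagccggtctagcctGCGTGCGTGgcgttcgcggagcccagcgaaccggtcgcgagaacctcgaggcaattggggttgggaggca
Pfkp: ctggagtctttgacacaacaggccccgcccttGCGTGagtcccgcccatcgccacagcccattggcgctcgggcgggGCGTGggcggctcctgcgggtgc
Gpi1, Tpi1 and Vhl had no core in any window searched, which says only that these letters are not in those bases.

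Levels per length placed the glycolytic enzymes at the top of the list. These values are CPM divided by the exon length of the gene in kilobases, as the median of 16 libraries. Lactate dehydrogenase A (Ldha), which turns pyruvate into lactate, was highest at 102 CPM per kb (range 88.0 to 119). The pyruvate kinase gene Pkm followed at 79.5 and Gapdh at 75.2, with ranges that overlapped. Below a gap, Pgk1 stood at 50.9, the mutase Pgam1 at 44.7 and the enolase Eno1 at 43.9, so the enzymes of the second, ATP-yielding phase of glycolysis stood above those of the first at the median. Triose phosphate isomerase (Tpi1) stood at 29.7, the glucose phosphate isomerase Gpi1 at 25.3 and aldolase A (Aldoa) at 21.7, with ranges over libraries that touch or overlap from Pgk1 to Aldoa between neighbours. Near-identical copies make 3 of these levels uncertain: rows named Eno1b, the Pgk1 copies and the Pgam1 copies held 29.3%, 29.4% and 29.3% of the counts of gene and copies together.

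In some enzyme families 1 form stood far above the others, and in others the forms were close. Ldhb, the form that favours the return of lactate to pyruvate, stood at 0.58 CPM per kb against 102 for Ldha. Among hexokinases, which trap glucose in the cell, Hk1 (6.48, range 5.76 to 8.40) and Hk2 (5.66, 4.41 to 7.26) overlapped between libraries, and Hk3 stood at 0.106. Of the phosphofructokinases, the committed step, Pfkl stood at 9.24 and Pfkp at 3.18, with Pfkm (not on the list) at 4.44. Of the bifunctional enzymes that set the level of an allosteric activator of phosphofructokinase, Pfkfb3 stood at 8.03 and Pfkfb4 at 0.34, where predicted background made up 17.7% of the counts. Pdk1, a kinase that inhibits pyruvate dehydrogenase inside mitochondria, stood at 14.2, against 4.24 for Pdk3, 0.178 for Pdk2 and 0.0513 for Pdk4. The lactate transporter Slc16a1 (MCT1, not on the list) stood at 28.8, and the hypoxia-inducible exporter Slc16a3 (MCT4) at 0.47. The glucose transporters Slc2a1 (GLUT1, 3.59) and Slc2a3 (GLUT3, 2.88) were close, with ranges of 2.96 to 5.11 and 2.67 to 3.27 that overlapped.

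Oxygen sensors were present at middle levels. The prolyl hydroxylases Egln3 (17.8 CPM per kb) and Egln1 (14.6) stood above their substrate Hif1a (9.77), and Vhl stood at 2.74. HIF's partner Arnt (not on the list) stood at 4.68, while the other alpha subunit, Epas1, stood at 0.50. Targets outside glycolysis ran from Bnip3l (11.4) and Ddit4 (9.37), an inhibitor of mTORC1, through Kdm3a (8.28), a histone demethylase, down to genes at or near background. The share of counts that background would give was 70.4% for the collagen hydroxylase P4ha2, 43.1% for the repressor Bhlhe40, 38.0% for Aldoc, 33.5% for the peptide hormone gene Adm and 32.1% for the carbonic anhydrase Car9. Adm, at 2 to 17 counts, was the only member below the minimum of a mean of 10 counts; the other 37 passed, and no count over those 37 speaks for all 38. Carbonic anhydrase 9, a widely used hypoxia marker in tumours, thus had 7 to 20 counts in any library.

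**Figure D1:**
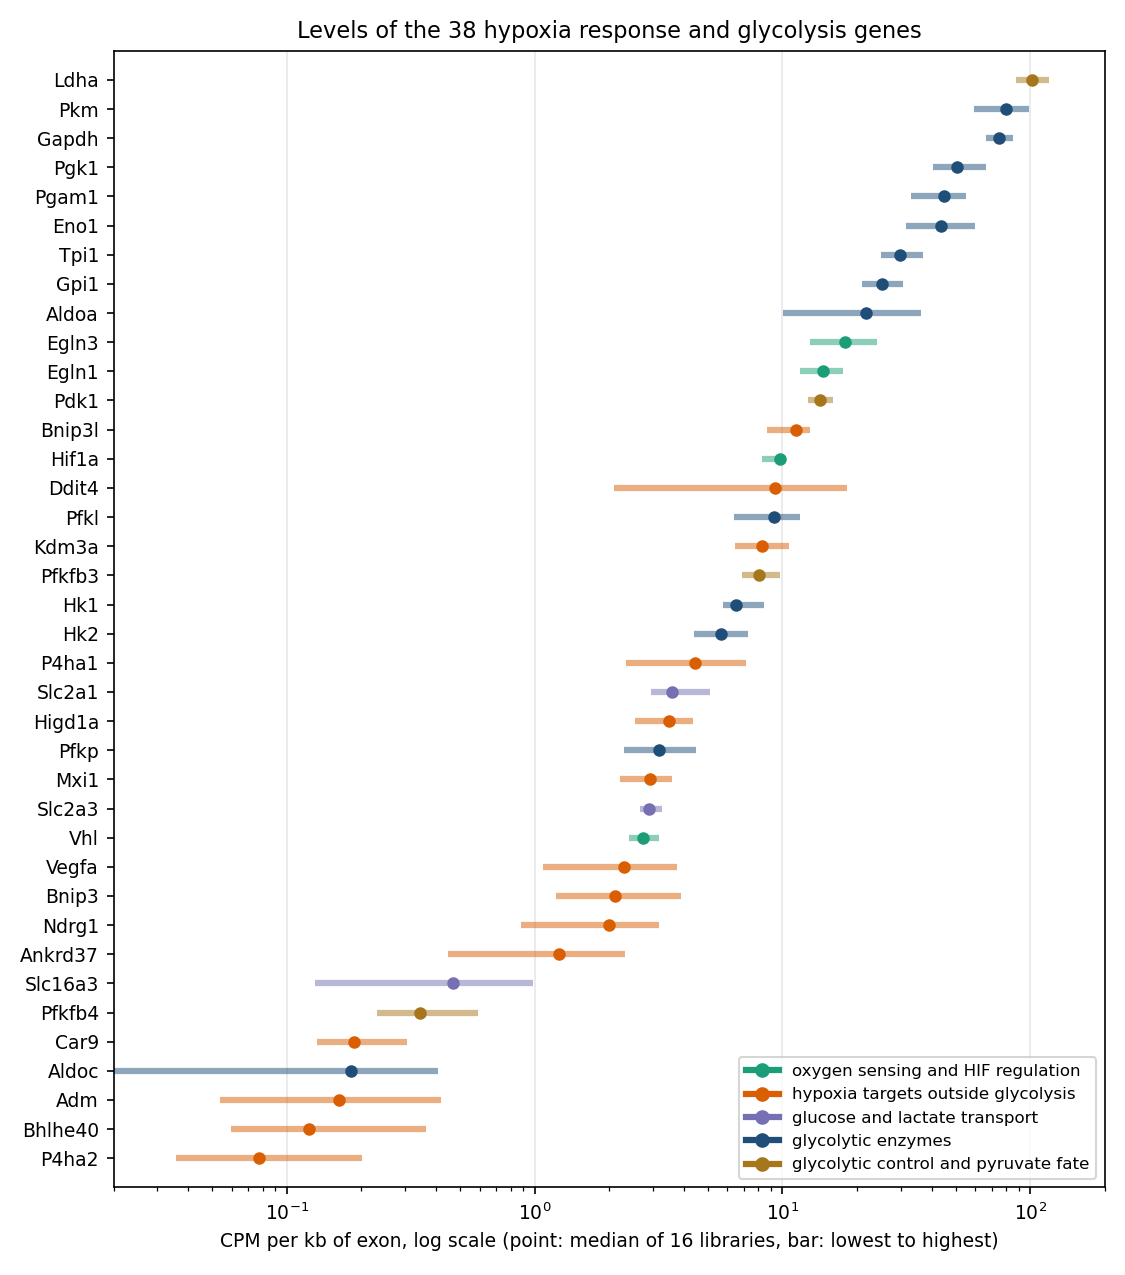
Level of each of the 38 genes in CPM per kb of exon (log axis): points are the median of 16 libraries and bars run from the lowest to the highest library, coloured by role, with a library without counts (Aldoc) drawn at the left end of the axis. Ldha stands highest at 102 and P4ha2 lowest at 0.077.

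Between niches, no member passed the test. The question was whether LPC in the CNS carry these genes at another level than marrow LPC. Over both LPC types, 0 of 37 members had an adjusted p under 0.05 in edgeR's quasi-likelihood test (0% of the 18878 genes tested), and the smallest was 0.346, for Hk2. At an unadjusted p under 0.05 there were 5 members higher in the CNS and 1 lower, against 9.15% of all genes tested. The log2 difference was above 0 for 33 of the 37, with a median of 0.11, while 50% of all genes lay above 0. In bulk RNA, fewer cells that express a gene and less RNA of it per cell cannot be told apart.

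The direction was shared by most roles. All 3 transporters (median log2 difference 0.24), 12 of 13 glycolytic enzymes (0.12), 12 of 13 targets outside glycolysis (0.11), 3 of 4 oxygen sensing genes (0.05) and 3 of 4 genes of glycolytic control and pyruvate fate (0.05) lay above 0. Other genes of these pathways, from a list of 76 of which 65 were tested, were split over both LPC types: 32 lay above 0 and 33 below, with a median of −0.0041, and 0 passed the test. In LK 41 of the 65 lay above 0 (median 0.031) and in LSK 30 (−0.019). Within that list, 13 of 20 other hypoxia targets lay above 0 over both LPC types (0.046). Of all 65 genes, 5 had an unadjusted p under 0.05 over both LPC types in edgeR's test, against 9.15% of all genes tested. All 5 were higher in the CNS. These were Hk3 (1.14), Slc16a7 (0.81), Ak4 (0.79), Eno2 (0.70) and Hmox1 (0.60). Their mean counts ran from 11.5 for Hk3 to 26.1 for Hmox1. Of the 7 pentose phosphate genes, which branch off glycolysis, 1 lay above 0 over both LPC types (median −0.041) and 4 in LK (0.0058). In LSK alone the median of the members was 0.083 (28 of 37 above 0) and in LK alone 0.13 (33 of 37), with 0 members passing in either (smallest adjusted p 0.855 and 1.00 in edgeR's test). At an unadjusted p under 0.05 there were 2 members in LSK (5.74% of all genes) and 3 in LK (3.99%), all higher in the CNS. DESeq2 called 0 members over both LPC types (0.212% of genes called), in LSK and in LK (0% each).

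Hexokinase 2, the inducible hexokinase, had 30.8, 33.3, 26.8 and 36.1 CPM in BM LSK and 37.8, 34.2, 43.3 and 35.7 in CNS LSK. In LK it had 26.3, 33.4, 26.9 and 30.4 CPM in BM and 37.9, 40.6, 34.4 and 29.9 in the CNS. The groups overlapped in both LPC types, and the CNS library was the higher one in 6 of 8 stems, with LSK 4 and LK 4 about level. Its log2 difference was 0.27 ± 0.078 (SE; n = 8 libraries a niche); edgeR's adjusted p was 0.346, and 0.10 with the stem as a block.

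Pfkfb3, the enzyme that raises phosphofructokinase activity, had 67.1, 53.0, 57.1 and 63.8 CPM in BM LSK against 74.2, 63.2, 67.7 and 63.1 in CNS LSK. In LK the values were 52.0, 59.4, 52.7 and 55.6 in BM and 61.3, 67.6, 58.6 and 60.1 in the CNS. Within stems the CNS library was higher in 7 of 8, by 0.11 to 0.25 on the log2 scale, and level in LSK 4 (−0.016). The SD of this difference over stems (0.089) was low, at percentile 5.38 of all genes tested, those with few counts included. The mean difference was 0.16 ± 0.058 (log2, SE). Its adjusted p in edgeR was 0.405 without and 0.0886 with the block. With the block and a minimum mean of 50 counts (11828 genes) it was 0.0323, where 1.14% of genes were called and 0.609% were called higher; that last setting was chosen after seeing the data.

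The transporters had lower counts. Slc2a1, the main glucose importer of blood cells, had 10.4, 10.8, 10.9 and 14.2 CPM in BM LSK and 14.2, 12.6, 17.9 and 12.6 in CNS LSK; in LK it had 11.7, 10.4, 12.1 and 13.0 in BM and 14.0, 13.7, 13.6 and 11.9 in the CNS. In LK, 3 of 4 CNS libraries lay above every BM library, and LK 4 and LSK 4 ran the other way. This gave a log2 difference of 0.24 ± 0.089 (SE; adjusted p 0.430 in edgeR's test, 0.240 with the block). Slc16a3 had 0.69, 1.66, 2.71 and 3.78 CPM in BM LSK, 3.13, 2.97, 5.24 and 1.63 in CNS LSK, 1.83, 1.83, 3.02 and 1.84 in BM LK and 2.99, 2.29, 3.78 and 1.71 in CNS LK. These values ran over a wide range in each group, from 13 to 117 counts a library, and predicted background made up 13.7% of them. Between niches it differed by 0.44 ± 0.28 (log2, SE; adjusted p 0.673 in edgeR's test, 0.399 with the block). With the block it ran from 0.28 without LSK 1 to 0.77 without LSK 4. Slc2a3, a high-affinity importer, had a log2 difference of 0.0080 and ran from 19.4 to 23.7 CPM over the 16 libraries.

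**Figure D2:**
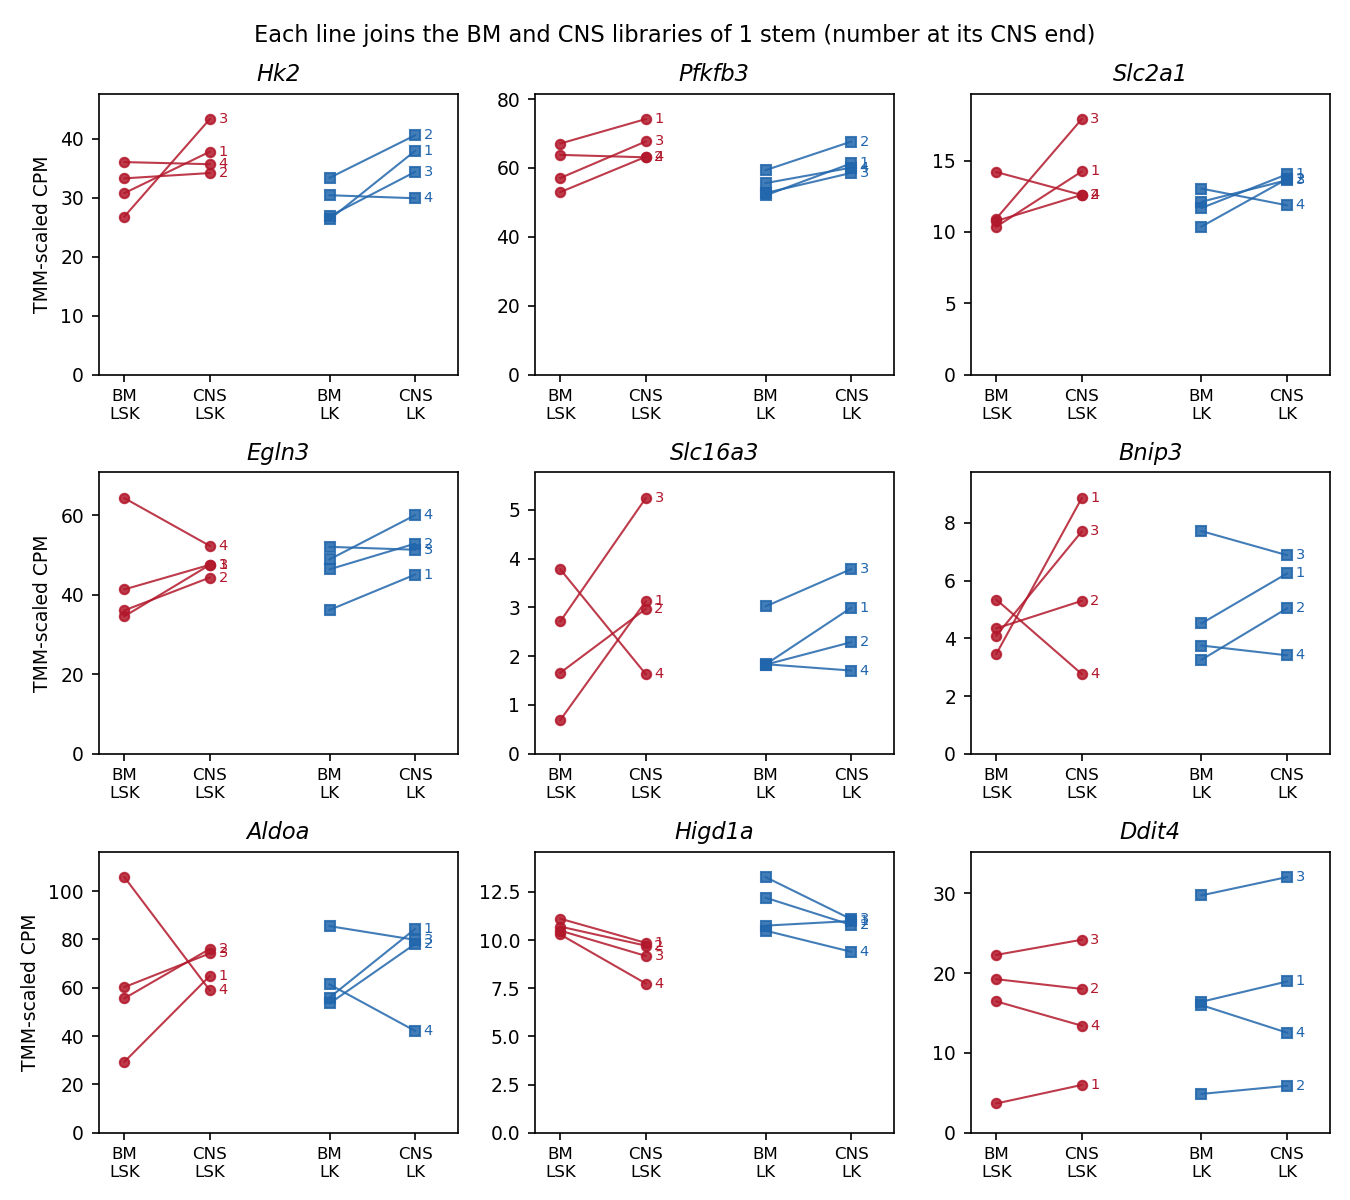
TMM-scaled CPM of 9 genes in every library (vertical axes from 0), with a line from the BM to the CNS library of each stem, LSK in red and LK in blue. Pfkfb3 lines run upward in 7 of 8 stems and Higd1a lines downward in 7 of 8, while Aldoa, Bnip3 and Slc16a3 lines cross, with LSK 4 running downward.

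Among the enzymes that average 50 counts or more, the niche difference of Aldoa varied most over stems. It had 29.3, 55.6, 60.3 and 105.8 CPM in BM LSK and 64.9, 76.1, 74.2 and 58.9 in CNS LSK, and 55.9, 53.5, 85.5 and 61.4 in BM LK and 84.3, 78.1, 79.8 and 42.2 in CNS LK. The BM LSK libraries held both its lowest and its highest value, and the niche difference was 0.14 ± 0.19 (log2, SE). It was 0.19 ± 0.15 with the block, 0.35 ± 0.23 with library background as a covariate and 0.44 ± 0.18 with both (edgeR adjusted p 0.866). Pgam1 (0.14), Pkm (0.14), Pfkl (0.15), Tpi1 (0.12), Pgk1 (0.11) and Eno1 (0.060) had differences of like size, each with an adjusted p above 0.6 in edgeR's test. Summing the named copies into Pgk1, Pgam1, Eno1 and the other members with copies left 0 members called. The lactate-forming Ldha, the most abundant, had a difference of 0.012 ± 0.064 (SE), and Gapdh 0.038 ± 0.058. Pfkp, the platelet-type phosphofructokinase, had 32.2, 42.3, 44.3 and 60.3 CPM in BM LSK and 38.3, 43.6, 38.6 and 34.2 in CNS LSK, and 37.95, 48.1, 46.2 and 39.8 in BM LK and 45.4, 47.4, 42.95 and 30.7 in CNS LK. Apart from BM LSK 4 the groups covered much the same range, and the difference was −0.13 ± 0.11 (log2, SE). With the block it ran from −0.19 without LSK 1 to −0.011 without LSK 4.

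Of the HIF targets outside glycolysis, the mitophagy receptor Bnip3 had 3.46, 4.34, 4.09 and 5.34 CPM in BM LSK, 8.86, 5.30, 7.70 and 2.76 in CNS LSK, 4.52, 3.26, 7.71 and 3.75 in BM LK and 6.24, 5.04, 6.88 and 3.41 in CNS LK. In LSK, 2 CNS libraries lay above all BM libraries and 1 below them all. The niche difference was 0.34 ± 0.22 (log2, SE; adjusted p 0.684 in edgeR's test). With the block it ran from 0.16 without LSK 1 to 0.52 without LSK 4. Its relative Bnip3l had a difference of 0.11 ± 0.076, Ankrd37, an ankyrin-repeat target, 0.38 ± 0.24, and P4ha1, a collagen prolyl hydroxylase, 0.17 ± 0.17. The 2 largest differences in the list, Bhlhe40 (0.82 ± 0.33) and P4ha2 (0.78 ± 0.32), belonged to genes with 7 to 40 and 5 to 28 counts, of which 43.1% and 70.4% were predicted background. With library background as a covariate they were 0.60 ± 0.42 and 0.071 ± 0.30. Vegfa, which drives vessel growth, had 0.20 ± 0.24, and Ndrg1, a stress-response gene, 0.030 ± 0.19. With the block Ndrg1 lay at −0.032, so that 32 of 37 members and 11 of 13 targets lay above 0 in that fit.

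Higd1a, a small mitochondrial protein that supports respiration under hypoxia, went the other way. It had 11.1, 10.7, 10.5 and 10.3 CPM in BM LSK and 9.85, 9.71, 9.18 and 7.75 in CNS LSK, groups that did not overlap (3.68% of all genes did not overlap in this comparison, and Higd1a was the only member). In LK it had 10.8, 12.2, 13.3 and 10.5 CPM in BM and 11.0, 10.8, 11.1 and 9.39 in the CNS, which overlapped (2.18% of all genes did not). The CNS library was lower in 7 of 8 stems. Over both LPC types no member separated the niches (0.0265% of all genes did). Its log2 difference was −0.18 ± 0.075 (SE; edgeR adjusted p 0.486, and 0.240 with the block). Pdk1 had 110.6, 107.9, 102.2 and 124.6 CPM in BM LSK, 109.9, 103.0, 103.1 and 98.4 in CNS LSK, 109.2, 102.6, 116.1 and 124.0 in BM LK and 112.8, 111.1, 111.8 and 111.1 in CNS LK. Its 2 highest values were those of BM LSK 4 and BM LK 4, and its difference was −0.060 ± 0.050 (log2, SE; with the block, −0.077 to −0.011 when 1 stem was left out).

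Of the oxygen sensing genes, Hif1a had the niche difference that varied least over stems. Hif1a had 58.7, 55.8, 61.0 and 60.0 CPM in BM LSK, 59.1, 56.2, 57.0 and 57.3 in CNS LSK, 57.2, 48.6, 58.7 and 59.1 in BM LK and 57.9, 48.8, 56.9 and 60.7 in CNS LK. The groups overlapped, and the low value in each LK group came from stem LK 2. Its log2 difference was −0.016 ± 0.053 (SE). This difference varied less over stems than that of nearly every gene tested (SD 0.047 on the log2 scale, at percentile 0.19). The genes tested include those with few counts. Egln1 (0.015 ± 0.078) and Vhl (0.079 ± 0.077) had small differences. Egln3 had 34.6, 36.0, 41.3 and 64.3 CPM in BM LSK and 47.5, 44.3, 47.5 and 52.3 in CNS LSK, so that 1 BM library stood above all CNS libraries and the other 3 below them. In LK it had 36.2, 46.4, 52.0 and 48.9 CPM in BM and 45.04, 52.8, 51.3 and 60.0 in the CNS. It differed between niches by 0.16 ± 0.11 (log2, SE; adjusted p 0.730 in edgeR's test, 0.251 with the block).

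Within a stem, most members lay on the same side, higher in the CNS in some stems and lower in others. The difference of the CNS and BM library of a stem was computed on log2(CPM + 0.5). In LSK 1, 32 of 37 members were higher in the CNS library (median 0.29), in LSK 2 29 (0.11) and in LSK 3 31 (0.20), but in LSK 4 only 4 were (−0.34). In LK 1, 36 of 37 were higher (0.31) and in LK 2 31 (0.22), while in LK 3 15 were (−0.036) and in LK 4 10 (−0.12). Over all 18878 genes, from 47.7% to 52.5% were higher in each stem, with medians between −0.010 and 0.017. Of the 65 other genes of these pathways, from 46.2% to 61.5% were higher. The members are not independent of each other and no test was run on these counts, which describe 8 pairs of libraries.

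**Figure D3:**
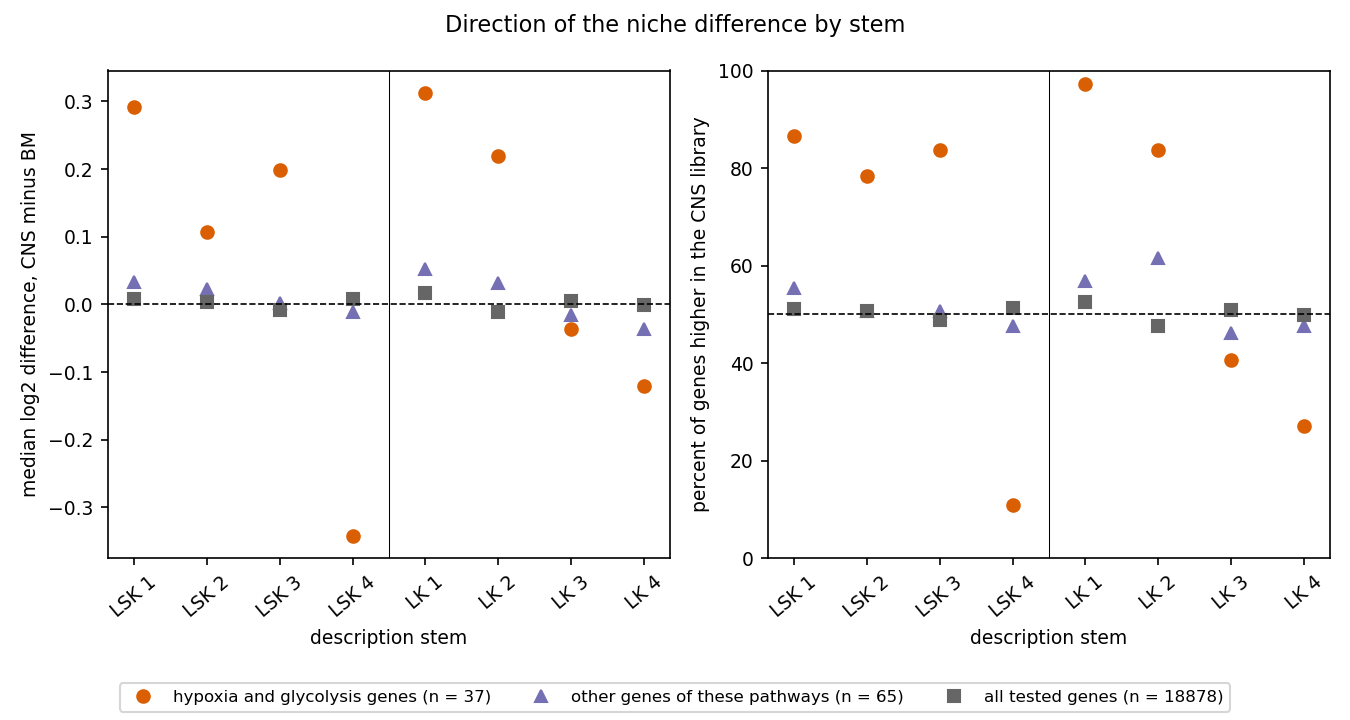
Left, the median log2 difference between the CNS and the BM library of each stem, and right, the percent of genes higher in the CNS library, for the 37 tested members, 65 other genes of these pathways and all 18878 genes tested. The members lie above the dashed line in 5 of 8 stems and below it in LSK 4, LK 3 and LK 4, while all genes stay near it.

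All 13 glycolytic enzymes were higher in the CNS library in LSK 1 (median 0.39), LSK 2 (0.16) and LK 1 (0.32), and 12 of 13 were lower in LSK 4 (−0.38). In LSK 4 the exception was Aldoc, a gene near background. The lowest and highest libraries came from bone marrow: BM LSK 4 held the highest value of 7 of the 13 enzymes among the 16 libraries, and BM LSK 1 the lowest of 7. Summed over the 13 enzymes, BM LSK libraries had 1309, 1552, 1585 and 2056 CPM and CNS LSK libraries 1748, 1774, 1764 and 1588, so the CNS values lay within the range of the BM values. BM LK libraries had 1437, 1543, 1819 and 1515 and CNS LK libraries 1769, 1893, 1709 and 1402. The log2 difference of background was 0.24 in LSK 1, 0.41 in LSK 2, 1.57 in LSK 3, 0.47 in LSK 4, 0.34 in LK 1, −0.30 in LK 2, 0.40 in LK 3 and 1.45 in LK 4. With background as a covariate the niche difference of Eno1 was 0.22 ± 0.12 in place of 0.060, and the median of the members was 0.14.

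The size of these swings differed between members. Slc16a3 ran from 1.61 in LSK 1 to −1.01 in LSK 4, Ankrd37 from 1.38 to −0.50, Bnip3 from 1.24 to −0.84, Aldoa from 1.13 to −0.84 and P4ha1 from 0.72 to −1.01. Among the 31 members that average 50 counts or more, the SD of the niche difference over stems had a median of 0.26, against 0.18 for the 11828 genes above that minimum. The SD between the means of stems was close to that of all genes, at 0.13 for both. Ordered over the 8 stems, Pfkl was the most like the rest (median Spearman's rho with the other members 0.81), then Aldoa, Eno1 and Gpi1 (0.79 each). Hif1a (0.24), Slc2a3 (0.17) and Vhl (−0.61) were the least like them. These are descriptions over 8 stems, and within a stem all members were measured in the same libraries.

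**Figure D4:**
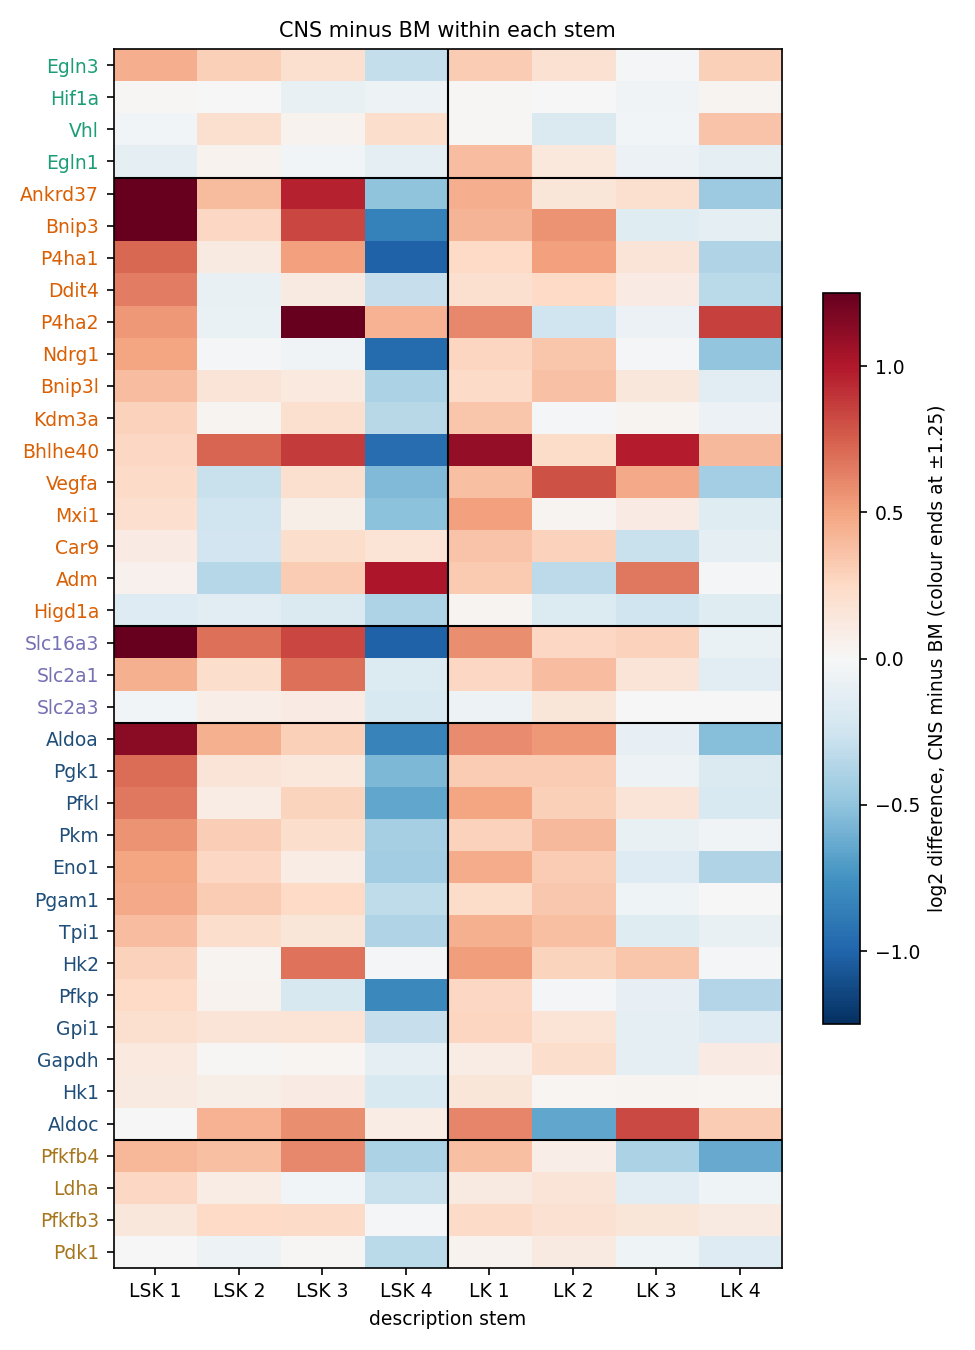
Log2 difference between the CNS and the BM library of each stem (columns) for the 38 genes (rows, grouped by role with label colours as in the plot of levels per kb; red higher in the CNS, blue lower, colours end at the ends of the scale). LSK 1 and LK 1 are mostly red and LSK 4 mostly blue, while the rows of Hif1a and Slc2a3 stay pale.

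Direction was steady in few members. Pfkfb3, Hk1, Aldoc and Bhlhe40 were higher in the CNS in 7 of 8 stems, as were 7.66% of all genes; Higd1a was lower in 7 of 8, as were 6.64%. No member was higher, or lower, in 8 of 8 (1.49% and 1.45% of all genes). With the stem as a block, 0 of 37 members passed in edgeR's test over both LPC types (0.667% of genes were called), 0 in LSK (0.138%), 0 in LK (0.0636%) and 0 in the interaction (0%). At an unadjusted p under 0.05 the same fits had 8 members over both LPC types (13.4% of genes), 5 in LSK (10% of genes), 4 in LK (6.26%) and 0 in the interaction (3.12%). Single stems weighed on this. With the block and without LSK 4, 5 members passed, all higher in the CNS (0.742% of genes called, 0.381% higher): Egln3 (0.26, adjusted p 0.0252 in edgeR's test), Pgam1 (0.24, 0.0353), Pfkfb3 (0.20, 0.0356), Slc16a3 (0.77, 0.0417) and Hk2 (0.32, 0.0451). Without LK 4, Hk2 passed (0.32, adjusted p 0.0432; 0.535% of genes called, 0.244% higher), and leaving out each of the other stems gave 0. LSK 4 and LK 4 are the stems with the lowest member medians, and these fits were added after that was seen, so they are given as values that depend on which pair of libraries is left out.

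Between LPC types, no member passed either. In edgeR's test over both niches, 0 of 37 members passed in LSK against LK (0.238% of genes were called), and 2 higher and 1 lower had an unadjusted p under 0.05 (12.1% of genes). The median log2 difference, LSK minus LK, was 0.034, with 25 of 37 above 0. The BM and CNS libraries of a stem enter this test as separate libraries; with their counts summed per stem, 0 members and 0% of genes passed (1870 genes had an unadjusted p under 0.05), so that fit sets the members apart from no other genes. Over both niches no member separated the LPC types (0.0901% of all genes did). Pfkfb3 was at 60.2 ± 6.38 CPM in BM LSK and 54.9 ± 3.33 in BM LK, and 67.1 ± 5.22 in CNS LSK and 61.9 ± 3.99 in CNS LK (SD, n = 4 each), a log2 difference of 0.12 ± 0.058 (SE; adjusted p 0.400 in edgeR's test). Higd1a was at 10.7 ± 0.35 and 11.7 ± 1.3 CPM in BM and at 9.12 ± 0.96 and 10.6 ± 0.79 in the CNS, a difference of −0.17 ± 0.075 (adjusted p 0.376). Aldoc had the largest difference (1.02 ± 0.39; adjusted p 0.313), from 0 to 33 counts with 38.0% predicted background. Within the CNS, LSK and LK libraries did not overlap for Aldoc, higher in LSK, and for Pdk1, at 98.4 to 109.9 against 111.1 to 112.8 CPM (3.65% of all genes did not overlap). Within BM no member separated (3.13%). In edgeR's test 0 members passed in either niche (0% of genes). At an unadjusted p under 0.05 there were 0 in BM (6.38% of genes) and 1 in the CNS (Pfkfb4, against 6.58% of genes). With the title number as a block over both niches, 0 members passed (0.858% of genes called).

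Among the members that average 50 counts or more, Ndrg1 (0.24 ± 0.19), P4ha1 (0.21 ± 0.17), Vegfa (0.18 ± 0.24) and Slc16a3 (0.18 ± 0.28) had the highest differences between LPC types (log2, SE). Egln3 (−0.092 ± 0.11) and Pdk1 (−0.065 ± 0.050) stood among the lowest. P4ha2 (0.66 ± 0.32) and Pfkfb4 (0.33 ± 0.19), which average fewer counts, lay above these. P4ha1 had 13.3, 16.98, 20.5 and 19.8 CPM in BM LSK, 15.6, 13.4, 18.3 and 14.2 in BM LK, 22.1, 18.3, 29.5 and 9.60 in CNS LSK and 18.6, 19.3, 20.6 and 10.8 in CNS LK. Ndrg1 had 14.8, 12.99, 16.3 and 11.8 CPM in BM LSK, 10.9, 11.9, 13.6 and 9.65 in BM LK, 21.0, 12.8, 15.8 and 5.80 in CNS LSK and 13.3, 15.2, 13.3 and 6.72 in CNS LK. For both genes the groups overlapped, and the fourth CNS library was the lowest of its group in both LPC types. Of the other genes of these pathways, 0 passed in edgeR's test; the collagen cross-linking gene Loxl2 was higher in LSK (1.22, adjusted p 0.0734, mean of 21.3 counts) and passed in DESeq2 (1.23, adjusted p 0.00535; 1.18% of genes called). Both tests count the libraries of a stem separately, and with counts summed per stem its adjusted p in edgeR was 0.163. DESeq2 called 0 members over both niches, within BM (0.207% of genes) and within the CNS (0.0318%).

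Ddit4 differed between stems far more than between groups. It had 3.67, 19.2, 22.3 and 16.5 CPM in BM LSK and 5.99, 18.0, 24.2 and 13.4 in CNS LSK, and 16.4, 4.87, 29.7 and 15.99 in BM LK and 18.95, 5.88, 32.0 and 12.5 in CNS LK. Stems LSK 1 and LK 2 were low in both niches, and LK 3 was high in both. Its SD between stems (0.99 on the log2 scale) exceeded that of 99.8% of all genes tested. Its niche difference was 0.040 ± 0.085 (SE) with the block. Vegfa also varied by stem (SD 0.55), as did Ndrg1 (0.40). Vegfa had 11.9, 9.99, 12.7 and 7.12 CPM in BM LSK, 14.2, 8.15, 14.7 and 4.71 in CNS LSK, 9.07, 5.33, 11.5 and 6.34 in BM LK and 11.95, 9.61, 16.04 and 4.61 in CNS LK. Stems LSK 4 and LK 4 were low in the CNS and LSK 1, LSK 3 and LK 3 were high in both niches. The interaction of niche and LPC type, which asks whether the niche difference differs between LSK and LK, called 0 members (0% of genes; 0 members at an unadjusted p under 0.05, against 1.49% of genes). Its smallest adjusted p among members was 1.00 in edgeR's test. A difference in the niche response of the LPC types was not detected with 4 libraries a group.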

How the data were processed

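RNA was extracted from freshly sorted cells and made into libraries with a stranded low-input total RNA kit, per the labels' protocols. The authors deposited counts as whole numbers, for 55414 Ensembl identifiers. The table is named as normalised, but library totals differed, so the values were used as raw counts. GRCm39 and DESeq2 are named in the submitters' processing notes; the aligner, counter, annotation, strand setting and use of molecular identifiers are not given in the sources used here, so counts may not be independent molecules, and overlapping, antisense or near-identical genes are uncertain. All count columns were used (0 left unused).

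Symbols were matched by identifier; 3333 identifiers without one held 41.8% of counts and stayed in library sizes. Those with a mean of at least 10 counts (18878) were TMM-scaled, and 4 group means were fitted in edgeR 4.0.16 under R 4.3.3 without a block, with two-sided quasi-likelihood tests of 7 contrasts and Benjamini-Hochberg adjustment over all genes tested at 0.05. Levels are TMM-scaled CPM. Exon lengths came from GENCODE annotation of GRCm38 and promoter sequences from RefSeq GRCm38.p6, builds other than that of the submitters. Predicted background is the receptor genes' counts per exon kilobase times a gene's length. Alternatives were normalization, filters, DESeq2 1.42.0, a background covariate, blocks, counts summed per stem, and leaving out libraries. Fits were also run on simulated counts. The changes planted there were larger than most member differences here, so that run does not show how often differences of these sizes would be found.

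Libraries of a stem were checked for pairing by correlating, across genes, their deviations from group means. All 8 stems exceeded 0.1 (0.112 to 0.339), so stems were taken as pairs in the fits with the stem as a block. Niche differences given with an SE and no other fit named come from the fit without a block, which ignores this pairing. The SE changed with the block, from 0.24 to 0.11 for Vegfa and from 0.39 to 0.40 for Aldoc. Pairs of different stems of the LPC type had a median of −0.071, and 3 of 24 exceeded 0.1. BM LSK 3 correlated more with CNS LSK 4 (0.151) than with CNS LSK 3 (0.112). Among genes that average 50 counts or more, stems had 0.353 to 0.625 and pairs of different stems at most 0.224. What a stem stands for is not in the labels. Replicates differed beyond sampling noise: chi-square over degrees of freedom was 15.5 to 64.3. The genes of the list, the other gene lists and the markers were chosen with earlier results of these data known. Values in every library are given for members past the threshold and for the 4 highest and 4 lowest differences, with a mean of at least 50 counts, between niches and between LPC types; Pfkfb3, Egln3, Aldoa and other members described closely were chosen after their values were seen.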

Additional observations from a re-analysis of the deposited data

Results flagged for a closer look

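A library was singled out by Dixon's test at the 95% level, which compares the distance between an extreme value and its neighbour with the whole range of the 4 libraries. Of 152 groups (38 genes in 4 groups), 11 held such a library, against 7.6 that chance gives at 1 in 20.

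In BM LK, replicate 3 stood above the others for Egln1 (60.6 CPM against 46.2 to 48.1), Pkm (452.0 against 348.6 to 352.6) and Slc16a3 (3.02 against 1.83 to 1.84). Hk1 was high in BM LK 2 (70.6 CPM against 51.7 to 53.7), and its CNS partner was the highest CNS LK library. Vhl was low in BM LK 4 (7.22 CPM against 8.37 to 8.43).

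In CNS LK, Aldoa was low in replicate 4 (42.2 CPM against 78.1 to 84.3) and Pfkfb4 high in replicate 1 (1.92 against 1.27 to 1.38). In CNS LSK, replicate 2 was high for Eno1 (247.0 CPM against 237.8 to 238.5) and Aldoc (1.32 against 0.69 to 0.72). In BM LSK, Slc2a1 was high in replicate 4 (14.2 CPM against 10.4 to 10.9) and Car9 in replicate 2 (0.71 against 0.30 to 0.37), a gene with 7 to 20 counts.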

How the results depend on the processing

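The count of members called was 0 in each of the 7 comparisons, and stayed 0 under all alternatives but the 3 named next, the replicate block on stems, the block with the background covariate, DESeq2 and each left-out library included. Of the alternatives added after seeing the data, the block with a mean of at least 50 counts called 1 member between niches (Pfkfb3), and the block left 5 called without stem LSK 4 and 1 without LK 4; over the fits that left out a stem the count ran from 0 to 5. Median differences of the members ran from 0.049 to 0.20 between niches over both LPC types, from −0.0048 to 0.24 in LSK, from 0.045 to 0.19 in LK and from −0.021 to 0.090 between LPC types. The sign of Hif1a between niches turned under the minimum of 50 counts (0.0092, and 0.0084 with the block) and without CNS LK 2 (0.015; −0.045 to 0.015 over the left-out libraries). Between LPC types Ddit4 turned without BM LSK 1 (0.025), CNS LSK 1 (0.00056), BM LK 3 (0.078) or CNS LK 3 (0.11; −0.29 to 0.11 over the left-out libraries), and Slc16a3 without BM LSK 4 (−0.015; −0.015 to 0.32). The cause was not tested. Libraries of LSK and LK with the same title number correlated over 0.1 in 4 of 8 cases, and in 6 of 8 (median 0.218) among genes that average 50 counts or more, against a median of −0.129 for different numbers. As not every case passed 0.1, the numbers were not taken as pairs; with the title number as a block, 162 genes and 0 members were called between LPC types. Depth limits Adm, Aldoc, Car9, P4ha2 and Bhlhe40, where predicted background is a large share of few counts.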
